A study of Homo sapiens with 34 samples.

Results

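The comparison was between H1 cells on day 4 and on day 2 of a cytokine-free haematopoietic differentiation, with 3 day 4 and 3 day 2 samples out of the 34 of the series. H1 is an established human embryonic stem cell line. All 6 samples were RNA of unsorted live cells, and each day had 3 biological replicates. The comparison took in every gene of the expression table, of which 19788 were tested. The comparison was taken as a step from mesoderm to haemogenic progenitors, with markers chosen when earlier results of these data were known. Of these markers, T, MIXL1, EOMES, MESP1 and TBX6 of nascent mesoderm were all lower on day 4, and TAL1, CDH5, PECAM1, TEK, TIE1 and CD34 of haemogenic or endothelial cells were all higher. ETV2, the lateral plate markers KDR, PDGFRA, APLNR and FOXF1 and the blood markers PTPRC and ITGA2B were not called. The mesenchyme markers COL3A1, COL1A1 and PRRX1 and the endoderm marker AFP were also higher. So were HAND1 of lateral plate mesoderm, the blood marker SPN and VTCN1 of trophoblast or amnion. The other endoderm markers FOXA2 and SOX17 were not called, and SOX17 had lower values on day 4. GATA3 of trophoblast or amnion was not called either, and CGA was at low values on both days.

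Embryoid bodies (EBs) are aggregates of stem cells. They were attached on collagen IV and kept in mTeSR1 medium with BMP4, VEGF and Thiazovivin for the first 2 days. This was then replaced by another base medium, StemLine II, with GlutaMax, 2-mercaptoethanol and non-essential amino acids. VEGF was the only growth factor added to it. The labels give the treatment of the day 0 EBs as BMP4+hVEGF and that of the day 2 and day 4 cells as hVEGF, and no allele or reporter is named for these samples. Whether the day 2 cells were collected before or after the change of medium is not given in the sources used here, since their label names hVEGF alone. Time and any change of medium or BMP4 between day 2 and day 4 cannot be told apart. All samples came from a single cell line. Day 0 EBs and the CD43- and CD43+ cells sorted on day 6, each with 3 replicates and labelled by day and sort, are shown beside the comparison. CD43 is a surface glycoprotein of blood cells.

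In the embryo, mesoderm forms in the primitive streak under WNT, Nodal and FGF signals, and T and MIXL1 are among its first transcription factors. Part of the lateral plate and of the extraembryonic mesoderm gains the VEGF receptor KDR. Under ETV2, TAL1 and other factors of the ETS, GATA and basic helix-loop-helix families, it becomes haemato-endothelial progenitors. These give rise to endothelium and, through haemogenic endothelium, to the first blood cells of the yolk sac, which are mainly primitive erythrocytes. The fetal membranes, the heart and the connective tissue of the early embryo also take cells from these parts of the mesoderm.

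The table holds tag counts corrected for GC content, without decimals, which are called normalized values below. They carry no sequencing depth, are not scaled by gene length and were not compared between genes. Every sample held the same set of numbers in another order, with a highest value of 90700, so differences among the most abundant genes were compressed. Samples were close within a day, with Pearson correlations across genes, on log2(value + 1), of 0.984 to 0.985 for day 2 pairs and 0.982 to 0.984 for day 4 pairs. Pairs of unlike days correlated at 0.920 to 0.929. A gene was called when its Benjamini-Hochberg adjusted p-value from limma was below 0.05 and its fold change was above 4, and "rose", "fell" and "changed" below refer to called genes. Standard errors (SE) and p-values came from 1 fit of 33 samples, with the spread of each gene pooled over 11 populations. They thus do not measure the spread of the day 2 and day 4 replicates alone. In unsorted cells, fewer cells of a type and less RNA per cell cannot be told apart.

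RefSeq start-site windows of TAL1, GATA1 and ERG, which were among the transcription factor genes with the largest rises, are printed here because factors of the GATA, ETS and TAL1 families are known to bind the motifs searched for. Each window is 300 bases long, on GRCh38.p14, in the direction of the gene. The TAL1 window is chr1:47232286-47232585 on the minus strand, the GATA1 window chrX:48786340-48786639 on the plus strand and the ERG window chr21:38498455-38498754 on the minus strand. Capitals mark matches to the GATA motifs AGATAA and TGATAA, the E-box CAGCTG bound by TAL1 with its partners, and the ETS motifs CCGGAA and AGGAAG, each searched on both strands. A gene with several windows is shown by the one with the most matches.
TAL1: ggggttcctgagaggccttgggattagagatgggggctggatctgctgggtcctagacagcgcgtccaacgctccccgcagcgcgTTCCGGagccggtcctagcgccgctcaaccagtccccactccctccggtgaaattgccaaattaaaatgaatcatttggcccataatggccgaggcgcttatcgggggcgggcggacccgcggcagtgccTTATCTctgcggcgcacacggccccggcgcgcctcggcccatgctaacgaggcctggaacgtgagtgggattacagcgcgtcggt
GATA1: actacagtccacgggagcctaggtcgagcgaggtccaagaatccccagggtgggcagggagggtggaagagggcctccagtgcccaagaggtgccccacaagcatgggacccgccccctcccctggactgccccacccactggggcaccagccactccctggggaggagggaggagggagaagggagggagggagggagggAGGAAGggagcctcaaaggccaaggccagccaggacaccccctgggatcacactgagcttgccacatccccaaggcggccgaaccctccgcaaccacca
ERG: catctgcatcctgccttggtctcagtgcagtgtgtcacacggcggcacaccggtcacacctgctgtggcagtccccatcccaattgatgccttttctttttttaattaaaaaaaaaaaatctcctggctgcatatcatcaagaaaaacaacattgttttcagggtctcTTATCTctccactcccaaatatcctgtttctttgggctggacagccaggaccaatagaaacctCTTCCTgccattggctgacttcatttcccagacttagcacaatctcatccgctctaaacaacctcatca

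The TAL1 window, 1 of 2 in the table, held CCGGAA at bases 86 to 91 and AGATAA at bases 216 to 221, both read on the opposite strand. The GATA1 window held AGGAAG at bases 202 to 207, inside a run of purines. The ERG window, 1 of 4, held AGATAA at bases 169 to 174 and AGGAAG at bases 232 to 237, both on the opposite strand. Among 35116 start-site windows, AGATAA was found in 10.3%, TGATAA in 7.53%, CAGCTG in 17.9%, CCGGAA in 17.2% and AGGAAG in 33.6%, and 63.3% held at least 1 of the 5. The matches are descriptions of letters, and binding was not measured here.

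Of the 19788 genes tested, 1879 (9.5%) were called between day 4 and day 2. They comprised 983 genes that rose (4.97%) and 896 that fell (4.53%), and the median log2 fold change of all tested genes was -0.03. Protein-coding genes made up 837 of the risen and 752 of the fallen genes. In the scatter plot of all genes, the genes with the largest rises included fibrillar collagen, endothelial and erythroid membrane genes, and the largest falls included organizer and primitive streak genes.

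**Figure D1:**
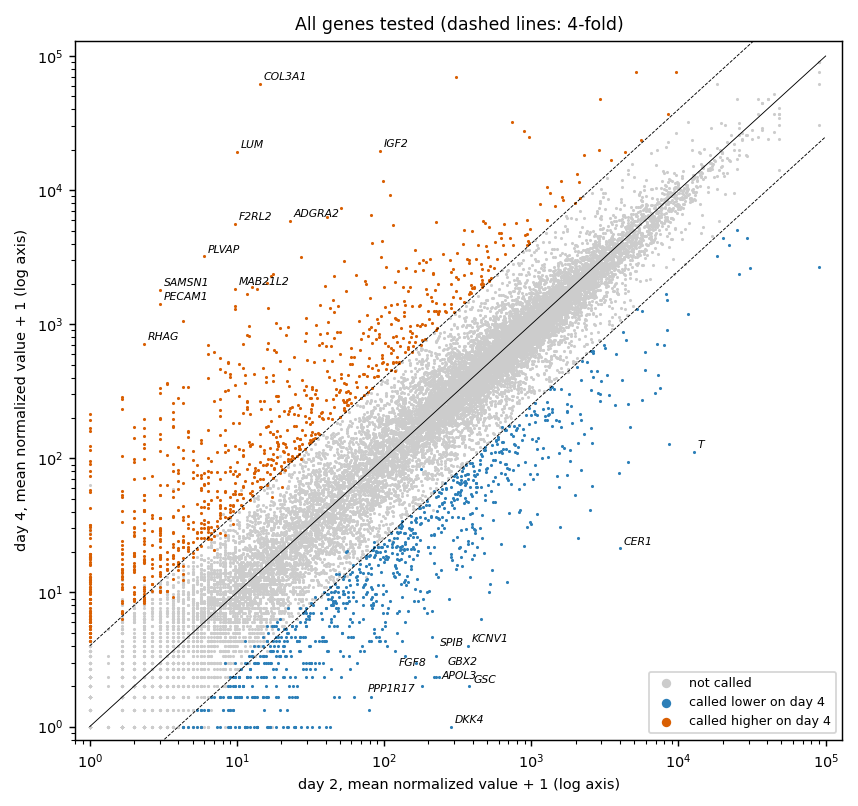
Mean normalized value + 1 of every gene tested on day 2 (x axis) and day 4 (y axis), both on log axes, over 3 replicates each. Orange points are the 983 genes called higher on day 4, blue points the 896 called lower and grey points the rest, dashed lines mark a 4-fold change, and the 20 genes with the largest changes under the naming rule are labelled.

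By that rule, the 10 largest rises and falls among called protein-coding genes with non-overlapping replicates and a mean of at least 100 on the higher day were named. COL3A1 (chr2:188974320-189012746), which encodes the chain of type III collagen, stood at 16, 16 and 8 on day 2. Its day 4 values were 48056, 48056 and 90700, which is a log2 fold change of 12.08 (SE 0.69, adjusted p = 1.99e-13). LUM, a collagen-binding proteoglycan gene, went from 8, 9 and 10 to 18772, 18772 and 20424 (10.92). Both were at 16 or below on day 2 and at 18772 or above on day 4 in each replicate. Next came PLVAP (9.60), which encodes the protein of endothelial fenestral diaphragms, SAMSN1 (9.52), an adaptor gene of haematopoietic cells, and F2RL2 (9.18), a protease-activated receptor gene. PECAM1 (8.88) and RHAG (8.26) followed and are described with their lists. The remaining rises were ADGRA2 (24, 22 and 20, then 5783, 5250 and 6697), an adhesion receptor that takes part in WNT7 signalling in vessels, IGF2 (7.81), the fetal insulin-like growth factor, and MAB21L2 (7.77).

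SAMSN1 was at 0, 2 and 4 on day 2 and at 1688, 1944 and 1791 on day 4. IGF2 went from 117, 112 and 48 to 18751, 17338 and 22812. The days were far apart in every replicate of both genes.

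Among the 10 largest falls, DKK4, a secreted WNT inhibitor and WNT target, was at 312, 314 and 232 on day 2 and was listed at 0 in all 3 day 4 samples. The others were GSC, CER1, FGF8, T, GBX2, APOL3, KCNV1, SPIB and PPP1R17, with log2 fold changes from -7.90 to -6.48. GBX2, a homeobox gene of the early embryo, went from 244, 165 and 268 to 2, 2 and 0 (-6.74).

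Genes of the primitive streak and nascent mesoderm fell as a group. Of 26 members tested, 20 fell and 0 rose, beside 4.53% of all genes that fell, and their median log2 fold change was -4.37 against -0.03 over all genes. Of the 14 transcription factors 11 fell, and of the 12 ligands and secreted inhibitors 9 fell. T, the gene of brachyury (chr6:166157656-166168700), went from 12784, 13287 and 11964 on day 2 to 147, 119 and 68 on day 4 (log2 fold change -6.89, SE 0.66, adjusted p = 3.67e-09). MIXL1, a homeobox gene of mesendoderm, stood at 8684, 8802 and 8281 on day 2 and at 126, 148 and 104 on day 4 (-6.09, SE 0.94). The day 2 and day 4 replicates of both genes were far apart, and in the day 0 EBs T had been at 4, 3 and 6 and MIXL1 at 24, 14 and 22.

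EOMES, a T-box factor of mesendoderm, went from 4116, 3542 and 4243 to 95, 76 and 60 (-5.69). MESP1, which marks the earliest cardiovascular mesoderm, was at 616, 678 and 744 and then at 14, 17 and 2 (-6.19). MSGN1 and TBX6, factors of paraxial mesoderm, fell by 4.62 and 3.98 on the log2 scale, and MSGN1 varied on day 4, at 4, 68 and 16. GSC, a homeobox gene of the organizer, was at 372, 369 and 396 on day 2 and at 0, 0 and 3 on day 4. EVX1 (-4.17), MESP2 (-4.43) and CDX1 (-3.27) also fell. CDX2 (-1.15), CDX4 (-1.32) and LHX1 (-1.39) had lower values without reaching a 4-fold change.

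Among the secreted members, CER1, an inhibitor of Nodal, BMP and WNT, went from 4504, 4148 and 3419 to 20, 28 and 13 (-7.61, SE 0.79). NODAL itself went from 1902, 1639 and 1949 to 71, 129 and 82 (-4.31). WNT3A (-5.72), WNT8A (-3.21), FGF4 (-4.65), FGF8 (-7.10) and FGF17 (-5.27), ligands of the streak, all fell. LEFTY1, a Nodal inhibitor, fell by 2.47 and was no longer called without any single one of 5 replicates (-2.53 to -2.01), whereas LEFTY2 went from 584, 675 and 628 to 1303, 2040 and 1022 and was not called (1.15, adjusted p = 0.285). The closely related LEFTY genes may share reads.

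**Figure D2:**
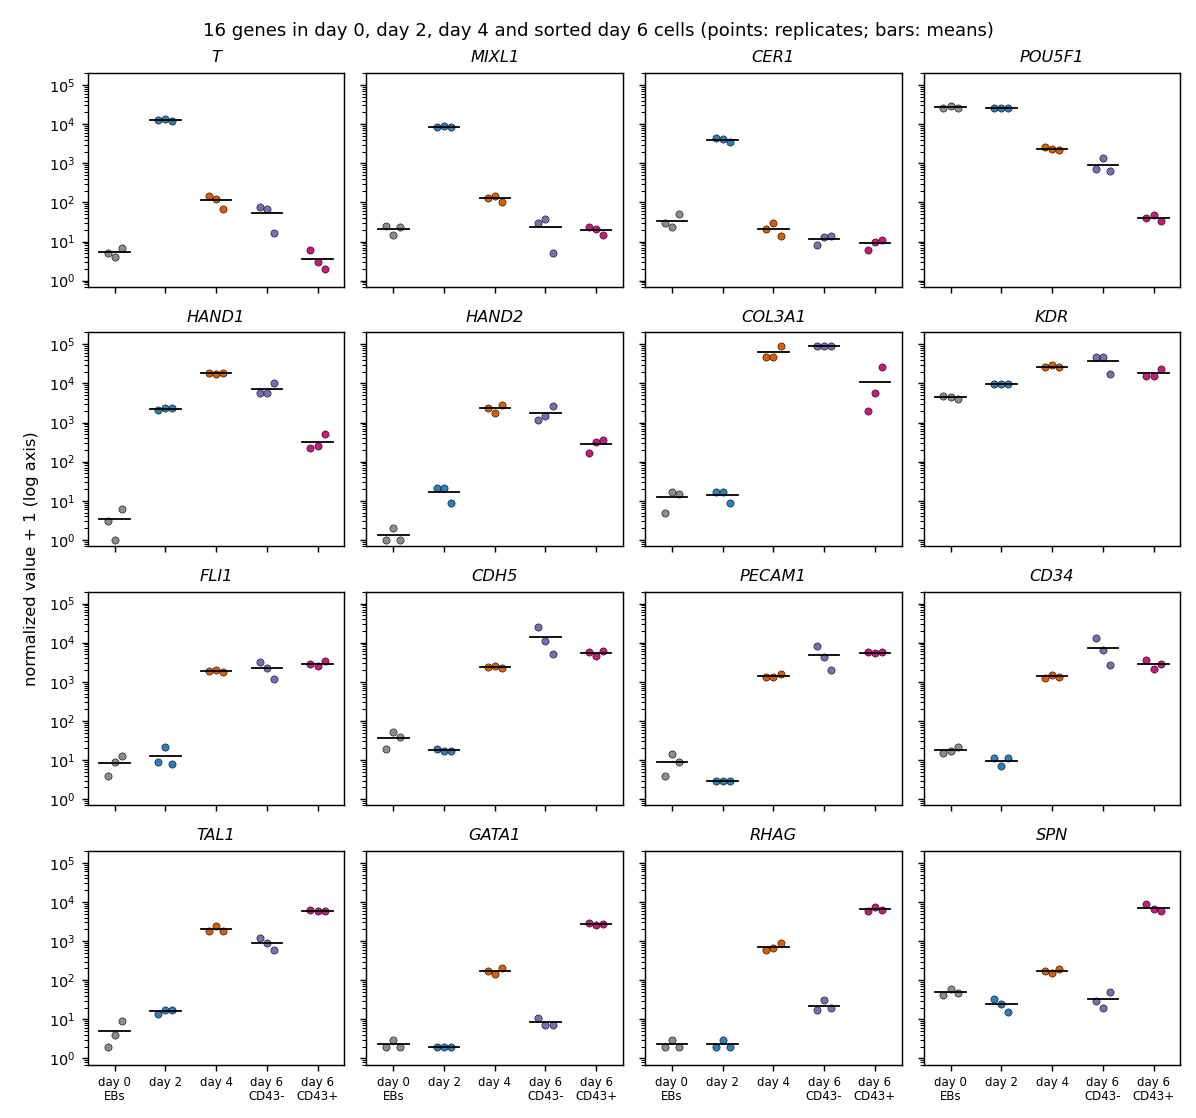
Normalized value + 1 on a log axis for 16 genes in day 0 EBs, day 2 and day 4 cells and sorted day 6 CD43- and CD43+ cells, with points for the 3 replicates and bars for means. T, MIXL1 and CER1 were highest on day 2, and HAND2, COL3A1, FLI1, CDH5, PECAM1 and CD34 rose from day 2 to day 4. GATA1, RHAG and SPN were higher on day 4 than on day 2 and higher still in day 6 CD43+ cells. SPN encodes the marker used for the sort, and the study chose GATA1 for being higher in CD43+ cells. For both, the day 6 difference is thus no separate result.

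Of 23 pluripotency genes tested, 7 fell and 0 rose, beside 4.53% and 4.97% of all genes, and their median was -1.51. At an adjusted p below 0.05 whatever the fold, 14 were lower, beside 18.5% of all genes. POU5F1, the gene of OCT4, stood at 25776 in all 3 day 2 samples and at 2618, 2328 and 2176 on day 4 (-3.44, SE 0.55). In the day 0 EBs it had been at 25776, 28960 and 25776, which overlaps its day 2 values, high in the range where values tie between samples. SOX2, its partner factor, had already gone from 3048, 3656 and 3000 on day 0 to 325, 215 and 396 on day 2, and was at 16, 49 and 10 on day 4 (-3.85). NANOG went from 1026, 814 and 1288 to 376, 296 and 274 and was not called (-1.71, adjusted p = 0.0541), although its replicates did not overlap. TDGF1, the Nodal co-receptor gene counted in the streak ligands, went from 4506, 4286 and 4779 to 85, 116 and 80 (-5.60). L1TD1 (-3.31), an RNA-binding protein gene of stem cells, ZSCAN10 (-2.99) and the epithelial cadherin CDH1 (-2.46) also fell. LIN28A (-0.38) and LIN28B (-0.10), regulators of let-7 microRNAs, were not called.

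Lateral plate and cardiac mesoderm genes rose on day 4 or were not called. Of 19 tested, 9 rose and 0 fell, beside 4.97% and 4.53% of all genes, with a median of 1.81. HAND1, a basic helix-loop-helix factor of lateral and extraembryonic mesoderm, went from 2126, 2312 and 2370 to 18763, 17356 and 18763 (3.01, SE 0.48). HAND2, its relative needed for heart and limb, was at 20, 20 and 8 on day 2 and at 2288, 1732 and 2865 on day 4 (7.15, SE 0.50, adjusted p = 9.7e-12). HAND1 was thus already high on day 2, whereas HAND2 was at 20 or below on that day.

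The T-box genes TBX2 (4.80) and TBX20 (2.81), the homeobox genes MEIS1 (2.85) and MEIS2 (3.60), and MEF2C (2.76), a factor of muscle and vessels, also rose. Of the surface receptors, PDGFRB rose by 2.80, from 490, 518 and 488 to 3540, 3322 and 3610. PDGFRA went from 1622, 1888 and 1757 to 7481, 5126 and 6066 (1.81) and KDR from 9485, 9485 and 9886 to 25836, 29000 and 25836 (1.48). Both were higher at an adjusted p below 0.05, at 0.00129 and 0.00165, but below 4-fold. APLNR, the apelin receptor of early mesoderm, stood at 25856 in all day 2 samples and at 37178, 29015 and 29015 on day 4 (0.29, adjusted p = 0.694). GATA4 (0.35), GATA6 (0.05), FOXF1 (0.64) and NKX2-5 (-0.92) were not called, and ISL1, a second heart field factor, had lower values (-1.81, adjusted p = 0.0443).

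Many endothelial genes rose, among them ETS factors, receptors and junction genes. Of 59 tested, 29 rose and 2 fell, beside 4.97% and 4.53% of all genes, with a median of 1.90. By role, 6 of 15 transcription factors, 9 of 18 receptors, 2 of 7 ligands and 12 of 19 junction or surface proteins rose. FLI1, an ETS factor of blood and endothelium (chr11:128686535-128813267), was at 8, 20 and 7 on day 2 and at 1892, 1977 and 1803 on day 4 (7.36, SE 0.37, adjusted p = 1.76e-14). ERG, its close relative, went from 8, 15 and 10 to 716, 884 and 838 (6.12, SE 0.37). The highest day 2 replicate of either gene was at 20, and every day 4 replicate was at 716 or above.

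SOX7 (3.81), SOX18 (2.69), HHEX (2.37) and NR2F2 (2.22), factors of endothelial and haematopoietic specification, rose as well. ETV2, the ETS factor at the head of the haemato-endothelial programme, stood at 63, 82 and 62 on day 2 and at 112, 266 and 134 on day 4, a difference below 4-fold (1.20, adjusted p = 0.0285). In the day 0 EBs it was at 22, 14 and 26, so its values on day 2 were already above those of the EBs. FOXC1, a forkhead factor of mesoderm, fell from 1040, 1217 and 1290 to 101, 133 and 66 (-3.60). SOX17, a factor of arterial endothelium and endoderm, went from 994, 1128 and 1222 to 437, 444 and 366 and was not called (-1.42, adjusted p = 0.0496).

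Of the receptors, TEK, the angiopoietin receptor, went from 86, 122 and 97 to 2396, 2862 and 2730 (4.71, SE 0.35). TIE1 (3.10), FLT1 (2.94), the neuropilins NRP1 (3.44) and NRP2 (2.39), the BMP9 receptor ACVRL1 (4.11), S1PR1 (2.57), the scavenger receptor STAB1 (5.50) and CD93 (6.10) rose. CD93 was at 1 in all day 2 samples and at 124, 196 and 103 on day 4. The ligands that rose were ANGPT2 (5.24), which binds TEK, and EGFL7 (2.58), a secreted protein of endothelium.

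CDH5, the gene of VE-cadherin, was at 18, 16 and 16 on day 2 and at 2330, 2512 and 2248 on day 4 (7.06, SE 0.37). PECAM1, the gene of CD31, was at 2 in every day 2 sample and at 1362, 1304 and 1590 on day 4 (8.88, SE 0.34, adjusted p = 1.13e-16). CD34, a sialomucin of progenitors and endothelium, went from 10, 6 and 10 to 1278, 1518 and 1319 (7.18, SE 0.34). All 3 were at or below their day 0 range on day 2, and in none did a day 2 replicate come near a day 4 replicate. PLVAP was at 6, 9 and 0 and then at 2760, 3738 and 3144. TMEM88, a WNT regulator of heart and blood formation, went from 32, 54 and 34 to 6460, 5245 and 7152 (7.29), and ICAM2 (7.09), ECSCR (5.29) and MMRN2 (4.22), surface proteins of endothelium, also rose. CAV1, the caveolin gene, fell from 180, 156 and 160 to 24, 35 and 16 (-2.74).

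Other endothelial genes stood at low values on day 4 and were not called. The Notch ligand DLL4 was at 17, 20 and 10, the tight junction gene CLDN5 at 2, 3 and 8, EMCN at 1, 4 and 10 and ROBO4 at 4, 12 and 6. In the day 6 CD43- cells the same genes stood at 2370 to 9493, 406 to 1821, 72 to 316 and 58 to 1278. All 4 genes were thus higher in the sorted CD43- cells of day 6 than in any day 4 sample.

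Of 37 haematopoietic transcription factor genes tested, 19 rose and 3 fell, beside 4.97% and 4.53% of all genes, with a median of 2.02. The list holds 10 factors that the study itself chose with these samples, of which 8 rose, so their count is not independent evidence of direction. Among the other 27, 11 rose and 3 fell, and FLI1, ERG, HHEX and MEIS1 are counted here and in the lists above. TAL1, the basic helix-loop-helix factor of the blood programme (chr1:47216290-47232220), was at 13, 16 and 16 on day 2 and at 1837, 2431 and 1856 on day 4. GATA1, the erythroid and megakaryocytic GATA factor (chrX:48786554-48794311), was at 1 in each day 2 sample and at 166, 140 and 203 on day 4. These 2 genes, whose windows are printed above, had non-overlapping days. GATA1 stood at 6 to 10 in day 6 CD43- cells and at 2616 to 2865 in day 6 CD43+ cells, so its day 4 values in unsorted cells lay between those of the sorted populations.

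KLF1, the erythroid Krüppel-like factor, went from 36, 30 and 41 to 821, 822 and 894 (4.54, SE 0.44). CBFA2T3, a co-repressor of TAL1 complexes, went from 35, 30 and 41 to 670, 694 and 746 (4.29, SE 0.29), and MLLT3, a regulator of stem cell maintenance, from 106, 133 and 120 to 986, 952 and 1319 (3.16, SE 0.19). Each of these genes had 3 day 4 values well above its 3 day 2 values.

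KLF2 (4.43), a shear-responsive endothelial factor, MYB (4.57), GFI1B (3.47), STAT5A (2.17) and IKZF1 (2.02) rose too. RUNX3 fell from 103, 102 and 156 to 19, 12 and 12 (-2.99), BCL11A, the repressor of fetal globin, from 288, 222 and 296 to 50, 27 and 40 (-2.78), and CEBPA, a myeloid factor, from 284, 314 and 326 to 97, 68 and 60 (-2.05). NFE2, the factor of megakaryocytes and erythroid cells, had a log2 fold change of 1.67 without a call.

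Erythroid genes of the cell membrane were among those that rose, and no globin gene was called higher. Of 41 erythroid genes tested, 9 rose and 3 fell, beside 4.97% and 4.53% of all genes, with a median of 0.54. Of the 20 genes of receptors, iron uptake and membrane proteins 8 rose, of the 11 haem synthesis genes 1 rose, and of the 10 globin genes 0 rose. RHAG, which encodes the Rh-associated glycoprotein of the red cell membrane, went from 1, 2 and 1 on day 2 to 586, 652 and 904 on day 4 (8.26, SE 0.64, adjusted p = 5.37e-11). The glycophorin genes GYPB (99, 104 and 155 on day 4) and GYPE (254, 254 and 410) were at 2 or below on day 2, but the genes of this family are near-identical copies whose shares of reads are uncertain.

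ALAS2, the erythroid enzyme that starts haem synthesis, went from 5, 6 and 6 to 71, 62 and 150 (3.73, SE 0.51). SLC40A1, the iron exporter ferroportin, rose from 32, 40 and 44 to 2110, 1754 and 1894 (5.61), whereas the erythropoietin receptor EPOR went from 305, 309 and 325 to 674, 600 and 654 (1.03) and the transferrin receptor TFRC from 1940, 1920 and 2074 to 1536, 1609 and 1398 (-0.39, adjusted p = 0.241). Neither receptor gene was called. EPB42 (2.36), a gene of the red cell skeleton, and RHD (2.20), which is nearly identical to RHCE, rose at day 4 values of 20 or below.

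HBE1, the embryonic beta-like globin, stood at 2, 2 and 2 on day 2 and at 2, 6 and 6 on day 4 (0.81, adjusted p = 0.372). HBZ, the embryonic alpha-like globin, was at 1, 1 and 2 and then at 0, 2 and 2 (-0.14, adjusted p = 0.936). Both were thus near 0 on both days, while the day 6 CD43+ cells had HBE1 at 90700 in each replicate and HBZ at 5476 to 10426. HBA2 fell from 100, 78 and 207 to 0, 32 and 0 (-5.21) and HBB from 6, 10 and 8 to 0, 4 and 0 (-2.37), both at low values, and HBA2 is nearly identical to HBA1, which was at 38, 186 and 0 and then at 8, 0 and 28. HBB was no longer called without day 4 replicate 1 or 3 (-1.98), and HBA1 was called without day 2 replicate 3 (-3.74). CA2, the carbonic anhydrase, fell from 2315, 2747 and 2118 to 490, 574 and 512 (-2.18).

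Of 40 blood surface marker and cytokine genes tested, 9 rose and 3 fell, beside 4.97% and 4.53% of all genes, with a median of 0.50. SPN, which encodes CD43, went from 32, 24 and 14 to 176, 152 and 196 (2.92, SE 0.37). PTPRC, the gene of the pan-leukocyte antigen CD45, was listed at 0 in all day 2 and day 4 samples, and ITGA2B, the megakaryocyte integrin CD41, was at 68, 83 and 69 and then at 62, 54 and 136 (0.08, adjusted p = 0.934). Of these defining blood genes, SPN was therefore higher on day 4, and PTPRC and ITGA2B were not called.

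CD33 (3.59) and CD38 (2.86) rose at day 4 values of 24 or below, and CD48 fell (-2.98). Of the 15 cytokine receptors 3 were called higher, among them CSF2RB (2.96) and IL6ST, the shared receptor gp130, which was just above 4-fold. KIT, the stem cell factor receptor, was at 469, 372 and 431 and then at 346, 327 and 359 (-0.30). Of 10 cytokine ligands, THPO, the gene of thrombopoietin (2.59), and IL11 (3.54) rose, and CXCL12, the chemokine of stem cell niches, fell from 2148, 2156 and 2328 to 568, 564 and 448 (-2.07). IL1B was at 6, 12 and 13 on day 2 and was listed at 0 in all day 4 samples.

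**Figure D3:**
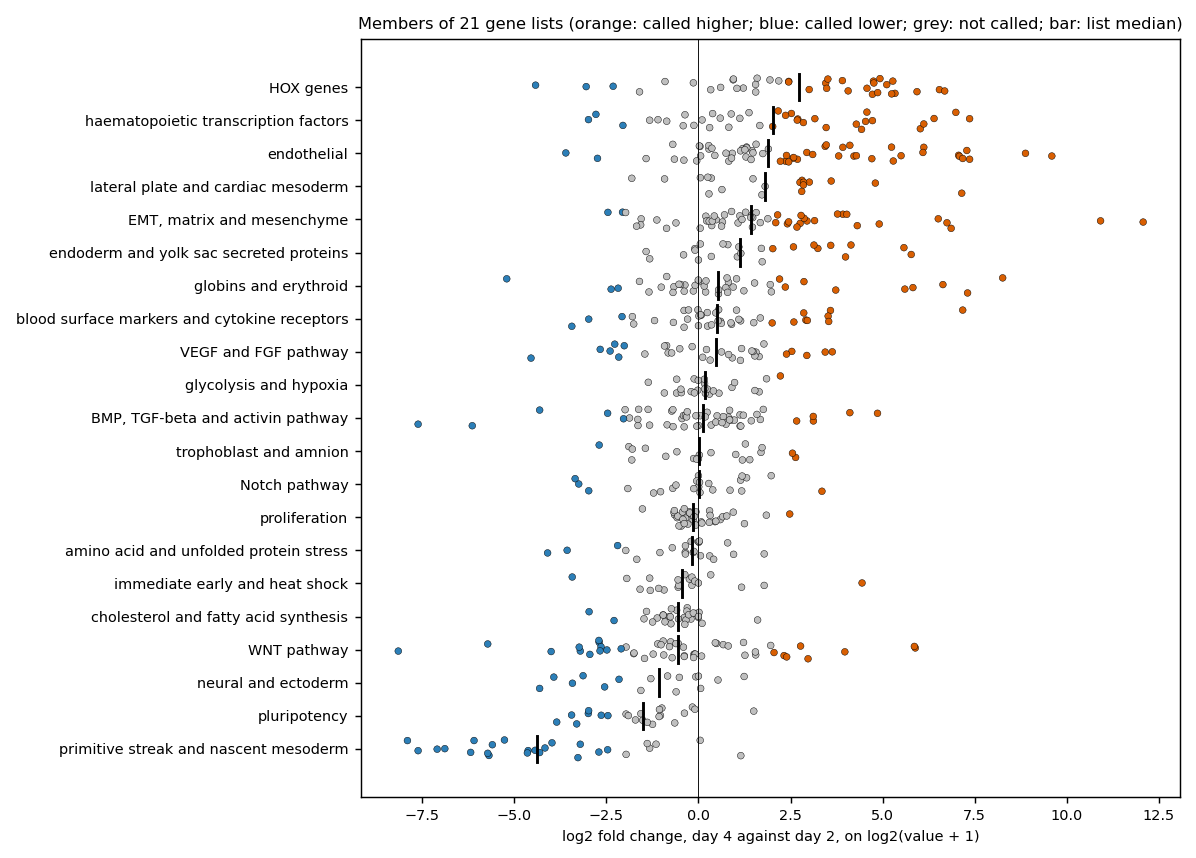
Log2 fold change of day 4 against day 2 (x axis) for the tested members of 21 gene lists, ordered by list median (black bar), with orange for called higher, blue for called lower and grey for not called. Medians run from -4.37 for primitive streak genes to 2.73 for HOX genes, and a gene in several lists is drawn in each.

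Genes of the VEGF and FGF pathways moved in both directions. Of 32 tested, 5 rose and 6 fell, beside 4.97% and 4.53% of all genes, with a median of 0.47. The receptors that rose were FLT1, NRP1, NRP2 and FGFR2, the last from 438, 400 and 354 to 5190, 4150 and 5552 (3.63, SE 0.34). VEGFC (2.53), a ligand of lymphatic and venous endothelium, rose at day 4 values of 32 to 53, and VEGFA went from 868, 746 and 865 to 3301, 1518 and 3456 (1.65, adjusted p = 0.000176) without reaching 4-fold. FGF2 (-2.40), FGF1 (-2.16) and FGF13 (-2.27) fell. VEGFA was called without day 4 replicate 2 (2.03), and FGF1 was no longer called without any single one of 5 replicates (-2.16 to -1.95). Of the 14 FGF and MAPK targets and feedback inhibitors, 0 rose and 3 fell. SPRY4, a feedback inhibitor of FGF signalling, went from 6671, 6791 and 7294 to 271, 426 and 222 (-4.55, SE 0.32, adjusted p = 7.83e-12), and the phosphatase DUSP5 (-2.01) and the ETS factor ETV4 (-2.67) fell too. SPRY1, a relative of SPRY4, had a log2 fold change of 1.78 without a call, so the Sprouty genes did not move together.

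Of 23 Notch pathway genes, 1 rose and 3 fell, beside 4.97% and 4.53% of all genes, with a median of 0.01. Without day 2 replicate 1 or 3, or day 4 replicate 1 or 3, 2 were called higher. The ligand genes DLL1 (-3.25) and DLL3 (-2.98) and HES7 (-3.35), the oscillating gene of the somite clock, fell. DLL1 went from 856, 917 and 926 to 99, 88 and 94. MFNG, a glycosyltransferase that modifies Notch receptors, rose (3.35). NOTCH1 (0.04), HES1 (-0.61) and HEY1 (-0.05) were not called.

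In the BMP, TGF-beta and activin pathway, 5 of 52 genes rose and 5 fell, beside 4.97% and 4.53% of all genes. The median of the list was 0.12, and 3 of its genes were called lower without day 4 replicate 3. BMP5 rose from 25, 32 and 28 to 994, 656 and 936 (4.86, SE 0.59), and BMP6 (2.67) and TGFB2 (3.12) also rose. BMP4 itself went from 1332, 1534 and 1455 to 4938, 4938 and 4758 (1.76, adjusted p = 0.000389), below 4-fold. INHBB, an activin subunit, fell from 147, 147 and 192 to 2, 1 and 1 (-6.14). The BMP target ID4 fell (-2.03), and ID1 (-1.65) and ID3 (-1.62) were lower at an adjusted p below 0.05 but below 4-fold, with ID1 at 3680, 3538 and 3980 on day 2 and 1226, 1272 and 1079 on day 4. ID2 had a log2 fold change of 0.68. TGFBI, a TGF-beta-induced matrix gene, rose (3.12).

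The WNT pathway held 8 genes that rose and 12 that fell of 51 tested, beside 4.97% and 4.53% of all genes. The median of the list was -0.55. Among the ligands and agonists, WNT3A, WNT5B (-2.49), WNT6 (-2.70) and WNT8A fell, while WNT11, a non-canonical ligand of heart and mesoderm, went from 8, 7 and 8 to 544, 432 and 570 (5.89, SE 0.50) and RSPO2, a secreted agonist, from 6, 6 and 8 to 412, 326 and 643 (5.86, SE 0.44). The R-spondin receptors LGR4 (2.77) and LGR5 (2.32) rose, and LGR5 lost its call without any 1 replicate (2.22 to 2.41). Among the inhibitors, DKK1 fell from 2095, 2209 and 1916 to 138, 137 and 112 (-4.00), as did SFRP2 (-3.24) and NOTUM (-2.67), whereas SFRP5 (3.98), SFRP1 (2.40) and DKK2 (2.98) rose. Of the canonical targets, SP5 (-2.70), SP8 (-2.95) and TCF7 (-2.10) fell, LEF1 rose (2.05), and AXIN2 went from 1829, 2066 and 1964 to 994, 866 and 864 (-1.11).

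Matrix and mesenchymal genes rose in number. Of 52 tested, 20 rose and 2 fell, beside 4.97% and 4.53% of all genes, with a median of 1.43. Of the 27 matrix proteins or enzymes, 11 rose. Besides COL3A1 and LUM, COL1A1 went from 954, 970 and 768 to 22812, 22812 and 37166 (4.91, SE 0.35), and COL6A3 from 108, 102 and 83 to 10824, 5779 and 18755 (6.75, SE 0.41). The basement membrane collagens COL4A1 (2.67) and COL4A2 (2.45) rose as well. FN1, fibronectin, stood at the top of the value range on day 2, at 90700 in each sample, and at 48061, 48061 and 90700 on day 4 (-0.61, adjusted p = 0.285). Values at the ceiling limit what can be seen of that gene.

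Of 11 transcription factors of mesenchyme and of epithelial-mesenchymal transition, 6 rose and 1 fell, beside 4.97% and 4.53% of all genes. SNAI1 fell from 2691, 2733 and 2509 to 615, 648 and 634 (-2.06, SE 0.20), whereas SNAI2, the other Snail family member, rose from 302, 449 and 370 to 2994, 2647 and 2930 (2.95, SE 0.51). The Snail genes thus changed in opposite directions. ZEB2 (3.92), ZEB1 (2.76), TWIST1 (2.42), TCF21 (4.31) and PRRX1, a homeobox gene of lateral plate mesenchyme (6.86), rose. VIM, the gene of vimentin, went from 2690, 3116 and 3048 to 48050 in all 3 day 4 samples (4.03), and CDH2, N-cadherin, from 8975, 10084 and 8278 to 2898, 3246 and 3048 (-1.57, adjusted p = 0.00927) without a call.

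HOX genes, which set position along the body axis, had the highest median of any list, at 2.73. Of 38 tested, 21 rose and 3 fell, beside 4.97% and 4.53% of all genes. The HOXB cluster held 9 risen genes of 10, the HOXC cluster 6 of 9, the HOXA cluster 5 of 10 and the HOXD cluster 1 of 9. HOXB4 went from 14, 22 and 16 on day 2 to 622, 597 and 652 on day 4 (5.11, SE 0.30, adjusted p = 4.06e-13), and HOXB3 (4.87), HOXB5 (4.75), HOXB7 (5.34) and HOXB8 (5.28) rose by similar amounts. HOXA9 went from 18, 16 and 10 to 378, 422 and 409 (4.73) and HOXA10 from 6, 14 and 12 to 228, 307 and 262 (4.58).

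The HOXC genes that rose were at 6 or below in every day 2 sample. HOXC6 was at 0, 6 and 2 and then at 231, 286 and 255 (6.54), HOXC8 at 0, 6 and 0 and then at 168, 221 and 203 (6.69), and HOXC5 was listed at 0 in all day 2 samples and at 28, 38 and 24 on day 4. Among the fallen genes were HOXD1 (-4.42) and HOXC13 (-2.32), the latter not called without day 2 replicate 1 (-2.23) or day 4 replicate 1 (-1.37). HOXD1 went from 124, 167 and 187 to 4, 15 and 4, whereas HOXB1, of the same paralogue group, rose from 86, 72 and 68 to 1423, 795 and 1310 (3.91). Neighbouring HOX genes and their antisense transcripts overlap, and the use of strand in the counting is not given in the sources used here.

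**Figure D4:**
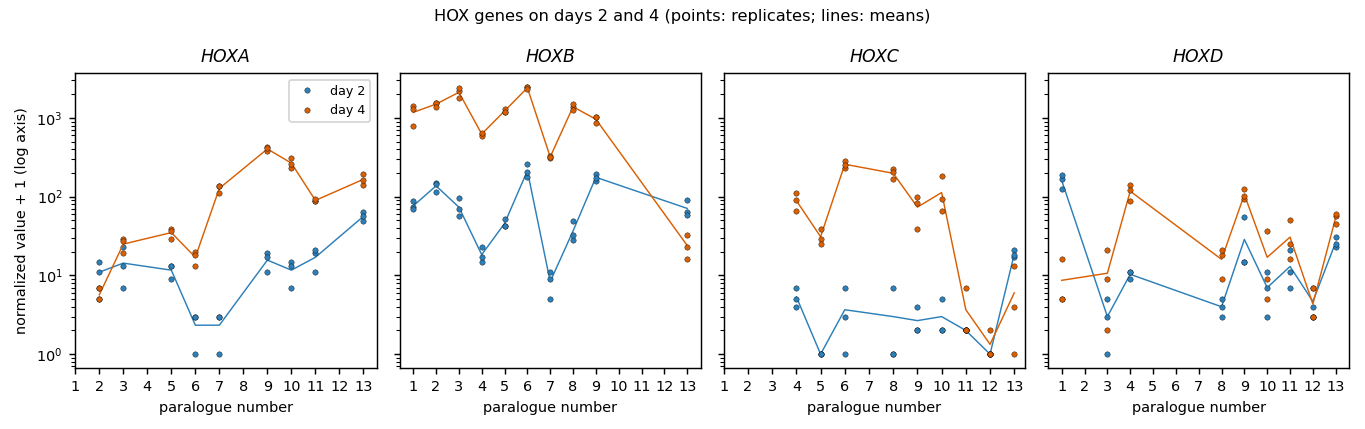
Normalized value + 1 on a log axis for HOX genes of the 4 clusters by paralogue number on day 2 (blue) and day 4 (orange), with points for the 3 replicates and lines joining the means. Of the HOXB genes, 9 were called higher on day 4, HOXD1 was called lower, and the 6 risen HOXC genes were at 6 or below on day 2.

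Markers of other tissues were present among the unsorted cells. Of 24 endoderm and yolk sac genes tested, 9 rose and 0 fell, beside 4.97% and 4.53% of all genes, with a median of 1.12. APOA1, an apolipoprotein of liver and yolk sac, went from 8, 22 and 16 to 714, 797 and 674 (5.58, SE 0.59), HNF4A from 4, 2 and 0 to 126, 178 and 108 (5.78, SE 0.90) and AFP, alpha-fetoprotein, from 4, 4 and 1 to 50, 62 and 62 (3.99, SE 0.65). The fibrinogen genes FGB (4.14) and FGG (3.14) rose at day 4 values of 54 or below, and FGA was listed at 0 on day 2 and stood at 12, 8 and 14 on day 4. FOXA2 (1.73, adjusted p = 0.0502, and called without day 2 replicate 2 at 2.04), GATA4 and GATA6 were not called, and ALB had a log2 fold change of -0.10. Of the 9 risen genes, 7 encode secreted proteins of visceral endoderm and liver, and the transcription factor gene HNF4A was also among them.

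Of 16 neural and ectodermal genes, 0 rose and 6 fell, beside 4.97% and 4.53% of all genes, with a median of -1.07. ZIC2 went from 2576, 2203 and 2916 to 124, 154 and 108 (-4.31, SE 0.99) and is a zinc finger gene that the streak also uses. POU3F1 (-3.42) and SOX3 (-2.16) fell, with SOX3 not called without day 2 replicate 2 (-1.78) or day 4 replicate 1 (-1.27), and PAX6 was at 13 to 30 on both days (-0.07). Of 20 trophoblast and amnion genes, 2 rose and 1 fell, beside 4.97% and 4.53% of all genes. VTCN1, an amnion and trophoblast surface gene, went from 20, 17 and 22 to 155, 101 and 131 (2.64), while CGA, the chorionic gonadotropin subunit, was at 6 or below in all 6 samples and GATA3 was at 915 to 1095 on day 2 and at 872 to 913 on day 4 (-0.13).

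Of 26 proliferation markers, 0 were called by limma, and at an adjusted p below 0.05 whatever the fold 0 were higher and 4 lower, beside 17.6% and 18.5% of all genes. MKI67 went from 4286, 4189 and 4150 to 5779, 5478 and 6002 (0.45, adjusted p = 0.121) and CDK1 from 2522, 2534 and 2794 to 4480, 4116 and 3324 (0.59, adjusted p = 0.0642). The 4 lower genes were CCNE1 (-0.56), MCM3 (-0.65), MCM5 (-0.66) and MCM6 (-0.47). Of 10 cell cycle inhibitors and D-type cyclins, CDKN2C was called, at day 4 values of 6, 10 and 8. CDKN1C, a maternally expressed inhibitor, had a log2 fold change of 1.84 and CCND2 one of -1.52, both below 4-fold.

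Of 29 genes of cholesterol and fatty acid synthesis, 2 fell and 0 rose, near the 4.53% and 4.97% of all genes, while 17 were lower at an adjusted p below 0.05 whatever the fold, beside 18.5% of all genes, with a median of -0.54. Of 25 glycolysis and hypoxia genes 1 rose, also near the share of all genes, and 2 were called higher without day 4 replicate 2. The risen gene was PFKP (2.23), a phosphofructokinase, and LDHA was at 8267 to 8966 on day 2 and at 9233 to 10076 on day 4.

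Of 22 genes of amino acid and unfolded protein stress, 3 fell and 0 rose, beside 4.53% and 4.97% of all genes. ASNS, asparagine synthetase, went from 6922, 7914 and 6826 to 394, 414 and 455 (-4.10, SE 0.17, adjusted p = 5.94e-16), and the cystine transporter SLC7A11 (-3.57) and CHAC1 (-2.19) fell with it. DDIT3, a stress-induced factor, was at 85, 122 and 114 and then at 105, 112 and 103 (0.01). Of 20 immediate early and heat shock genes, FOSL2, an AP-1 factor, rose from 167, 178 and 142 to 3770, 2922 and 4012 (4.44, SE 0.28) and EGR2 fell (-3.43). The list thus held 1 risen and 1 fallen gene, near the 4.97% and 4.53% of all genes. Instead of 1 fallen gene there were 3 without day 2 replicate 2, and 2 without any other single replicate but day 2 replicate 3. FOS varied among day 2 replicates, at 1247, 228 and 2487, and so did EGR1, at 840, 252 and 1904, and neither was called. Without day 2 replicate 2, FOS was called lower (-2.31). Immediate early genes respond to handling, and the part of handling in the spread among day 2 samples was not tested.

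The sorted day 6 cells share no sample with the comparison, but entered the same fit, with the same pooled spread per gene. The contrast of CD43+ with CD43- cells gives the relative level of the risen genes 2 days later. In that contrast 4.68% of all tested genes were called higher in CD43+ than in CD43- cells and 7.85% were called lower. Of the 983 genes that rose from day 2 to day 4, 138 (14.04%) were higher in day 6 CD43+ cells, which is 14.9% of the 927 higher there, and 305 (31.03%) were lower, which is 19.6% of the 1553 lower there. Of the 896 fallen genes, 50 (5.58%) were higher and 177 (19.8%) were lower in CD43+ cells. These shares are descriptions, and SPN, the gene of the sorted marker, is no result in that contrast.

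The lists differed in their day 6 counts. Of the 19 haematopoietic transcription factors that rose, 12 were higher and 1 lower in CD43+ cells, with a median log2 fold change of 2.81, and of the 9 risen erythroid genes 8 were higher. The study chose 8 of these 19 factors for being higher in CD43+ cells of this series, so the 8 of 8 that were higher restate that choice. Of the other 11 risen factors, 4 were higher, 1 was lower and 6 were not called, with a median of 0.49. The 1 lower factor was HOXA9, and SLC40A1 was the erythroid gene that was not called. Of 29 risen endothelial genes, 1 was higher and 4 lower, with a median of -1.02. The higher one was ARHGDIB, a GTPase regulator of leukocytes, and the lower ones were NR2F2, NRP1, CD93 and ANGPT2. FLI1 (0.49), PECAM1 (0.41), ERG (-1.02), CDH5 (-1.08) and CD34 (-1.14) were not called between the populations. CDH5 stood at 5254 to 25876 in CD43- and at 4481 to 6144 in CD43+ cells.

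Risen genes of mesenchyme, position and endoderm were mostly lower in CD43+ cells or not called. Of 20 risen matrix and mesenchymal genes 12 were lower and 0 higher, of 21 risen HOX genes 13 were lower and 0 higher, and of 9 risen endoderm genes 8 were lower and 0 higher. HOXB4 had the same mean on the log scale in both populations (0.00), whereas HOXA9 (-6.35), HOXC6 (-6.55) and HOXC8 (-6.65) were far lower in CD43+ cells. Of the largest rises, SAMSN1 was at 78 to 105 in CD43- and 4510 to 6369 in CD43+ cells (5.87), and IGF2 at 22812 to 48030 in CD43- and 1456 to 3241 in CD43+ cells (-3.93). COL3A1 was at 90700 in each CD43- sample and varied from 1952 to 25870 in CD43+ cells. The CD43- replicates also varied, with PLVAP at 90700, 20338 and 5979, and the third replicate was the lowest in CDH5, PECAM1, CD34 and FLI1 as well.

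**Figure D5:**
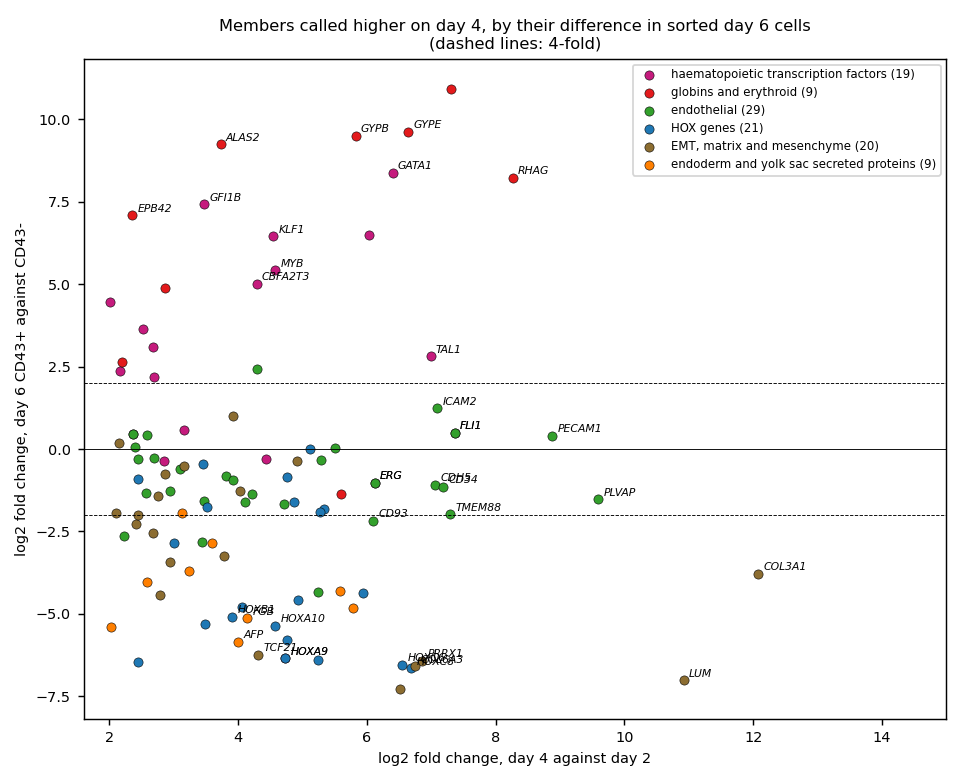
Log2 fold change of day 4 against day 2 (x axis) and of day 6 CD43+ against CD43- cells (y axis) for the members of 6 lists that were called higher on day 4, with dashed lines at a 4-fold day 6 difference. All but 1 of the risen erythroid genes lie above the upper line, as do 12 of the 19 risen haematopoietic transcription factors, 8 of which the study chose for being higher in CD43+ cells, most endothelial genes lie between the lines, and 13 of 21 HOX genes were called lower.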

How the data were processed

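RNA-seq of 34 samples of H1 cells was deposited as 1 table of 20255 genes with GRCh38 coordinates. Reads were aligned by the authors using bowtie2 and RSEM with Ensembl gene models, and the submitters' processing notes also list STAR 2.7 and the build hg38. The deposited values are a normalized score, namely tag counts that the authors corrected for GC content with EDASeq, both inside and across samples, and gave as whole numbers, and not raw counts. When sorted, the values were identical in all 34 samples (sum 17856940, median 197), so depth is unknown and no counting error could be computed. The samples of each day are described as biological replicates, and their sequencing provider is not given per sample.

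The test was limma 3.58.1 (lmFit, then eBayes with trend=TRUE, R 4.3.3) on log2(value + 1), with 33 samples of 11 populations in a single model. A gene entered when at least 3 samples reached a value of 10, and 467 genes did not. Calls needed a fold change above 4 together with a Benjamini-Hochberg adjusted p-value under 0.05. Log2 fold changes are on the log2(value + 1) scale, which understates changes of low genes, and none is given against a group listed at 0. The comparison, the 21 gene lists and their members were chosen with earlier results of these data known. Genes named were the 10 largest rises and 10 largest falls (protein-coding, non-overlapping, mean of at least 100 on the higher day) and list members, and a gene outside these is marked as picked with its values in view. Deviations of same-numbered samples correlated at 0.109 to 0.199 across genes in the sorted day 6 samples, whose numbers thus pair them, and not on days 2 and 4. Day 6 values are from the model without the block, and the blocked fit is an alternative. Start-site windows were those of RefSeq (GRCh38.p14). No set test was run. Some list members are counted but not reported by name here.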

Additional observations from a re-analysis of the deposited data

How the results depend on the processing

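Against the 1879 genes called between day 4 and day 2, 983 higher and 896 lower, the alternatives gave 1864 to 1939 calls for a pseudocount of 0.1, no filter on low values, quantile normalization, median-of-ratios scaling and robust variances, and 1589 for protein-coding genes alone. Every sample already held the same set of numbers, so quantile normalization could change little. Neither it nor median-of-ratios scaling tests the normalization made before deposit. A pseudocount of 10, which shrinks changes of low genes, gave 1063 (583 higher, 480 lower), and 1062 of these were shared with the 1879. A fold change above 2 gave 3863 (1958 higher, 1905 lower). Testing only genes that reached 100 in 3 or more samples left 589 lower genes, with 519 of the 1879 no longer tested. Leaving out 1 day 2 or day 4 replicate gave 1838 to 1911 calls, 966 to 986 higher and 872 to 925 lower. In the day 6 comparison, a pseudocount of 10 gave 473 higher and 985 lower genes, a fold change above 2 gave 2553 and 2813, and the value filter of 100 gave 602 higher. The share of fallen genes called higher in day 6 CD43+ cells was 3.54% with a pseudocount of 10 and 13.6% with a fold change above 2.

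The replicate numbers do not pair the day 2 and day 4 samples, since deviations of same-numbered samples correlated at -0.017 to 0.0037. With the replicate block 1653 genes were called, against 1659 in the same samples without it. In that fit of only the day 2 and day 4 samples, 9827 of 16661 genes had an adjusted p below 0.05 whatever the fold. The main model, whose spread is pooled over all populations, had 7148 of 19788. In the day 6 samples the block gave 861 higher and 1458 lower genes and changed no share of a day 4 list by over 1.5 times. Among risen list members it left 12 lower HOX genes in place of 13 and 7 lower endoderm genes in place of 8, and the counts of the other lists did not change. Of 250 named genes, CDX4, FGA, GBX2 and HOXD1 lost a lower day 6 call and ZIC2 gained one. Leaving out 1 day 2, day 4 or day 6 replicate gave 870 to 981 higher and 1490 to 1607 lower genes in day 6 CD43+ cells. The shares so obtained were 13.5% to 14.5% and 29.6% to 32.0% of the risen genes and 5.36% to 6.26% and 18.6% to 22.7% of the fallen genes. The alternatives for the day 6 samples other than those named for the share of day 4 genes, and those for single genes between days 0 and 2, were chosen after seeing the data.

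No named gene that was called changed sign. Of 250 named genes, 25 lost their call with a pseudocount of 10, most of them at values below 100 on both days, and 8 lost it and 2 gained it with a pseudocount of 0.1. Median-of-ratios scaling ended the calls of IL6ST and IKZF1, both close to 4-fold, and the block ended that of HOXC13. Besides the genes named with their replicates in the text, leaving out 1 replicate ended the call of CEBPA (to -1.91), CXCL12 (-1.96), DUSP5 (to -1.91), ID4 (to -1.85), LEF1 (1.95), RHD (1.80), VEGFC (1.91), IKZF1 (to 1.91) and IL6ST (to 1.97). Among short lists, a pseudocount of 10 left 5 risen blood surface and 5 risen endoderm genes.

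Depth is unknown, so values near 0 carry no detection limit, and ties at the top hide differences among abundant genes. Time and any change of medium cannot be told apart, nor can cell numbers and RNA per cell. All samples came from 1 cell line.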

Other observations

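The genes below are outside the lists and the naming rule and were chosen after their values were seen. H19, a non-coding RNA gene beside IGF2 (chr11:1995163-2001470 and chr11:2129112-2141238 on GRCh38), was at 328, 268 and 325 on day 2 and at 90700, 29000 and 90700 on day 4 (log2 fold change 7.66, SE 0.31, limma adjusted p = 3.44e-16). IGF2 went from 117, 112 and 48 to 18751, 17338 and 22812. Both were lower in day 6 CD43+ than in CD43- cells, by -3.52 and -3.93 on the log2 scale.

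Genes of the sarcomere were among the risen genes. ACTC1, cardiac actin, went from 945, 1078 and 865 on day 2 to 22836, 25862 and 25862 on day 4 (4.69, SE 0.46). TNNT2, cardiac troponin T, went from 10, 12 and 2 to 396, 416 and 392 (5.74, SE 0.78), and MYL4, an embryonic and atrial myosin light chain, from 10, 6 and 16 to 1745, 1754 and 1538 (7.26, SE 0.46). The 3 genes differed in the sorted day 6 cells, where TNNT2 (-6.12) and ACTC1 (-5.37) were lower in CD43+ cells and MYL4 (2.66) was higher. MYL4 stood at 348 to 842 in CD43- and at 3137 to 3654 in CD43+ cells. NKX2-5 (-0.92) and TBX5 (1.72), cardiac transcription factors of the lateral plate list, were not called on day 4, although TBX5 was called without day 2 replicate 2 (2.25) at values of 8 or below.

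NTS, the gene of the peptide neurotensin, was at the ceiling of 90700 in all 3 day 2 samples and at 2400, 3576 and 2097 on day 4 (-5.11, SE 0.74). In the day 0 EBs it was at 788, 940 and 1122, and in the sorted day 6 cells at 42 to 75 in CD43- and at 3117 to 4545 in CD43+ cells (6.02). CALCRL, the adrenomedullin receptor subunit of endothelium, went from 12, 4 and 10 to 1426, 1370 and 1110 (7.18, SE 0.40). SENCR, a non-coding gene within the span of FLI1, was listed at 0 in all day 2 samples and at 180, 163 and 158 on day 4, and its reads may be shared with FLI1, since the use of strand in the counting is not given in the sources used here.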
